A study of Mus musculus with 6 samples.

Results

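The Bcl2 family was examined in long-term EMT cells as a list of 10 genes that set the mitochondrial threshold for apoptosis. They were chosen by symbol for their known function, with earlier results of these data known. The list holds 3 anti-apoptotic genes (*Bcl2*, *Bcl2l1* and *Mcl1*), 2 pore-forming effectors (*Bax* and *Bak1*) and 5 BH3-only genes (*Bcl2l11*, *Bid*, *Bbc3*, *Pmaip1* and *Bmf*). Of these, 9 had a probe set whose annotation names that gene alone, out of 18820 such genes on the array, while *Bax* had none in the annotation used here and was not analysed. The study set EpRas cells grown for 14 days with 2 ng/ml of TGF-β1, here called long-term EMT cells (n = 3), against EpRas cells left without it for the same 14 days (Control, n = 3). Both groups share the BALB/c background and the stable Ha-Ras overexpression by which EpRas was made from the mouse mammary epithelial line EpH4, so that neither group shows the family without oncogenic Ras. RNA of each sample was hybridized to its own MoGene-1_1-st-v1 array, and the values are log2 values from the Robust Multi-array Average (RMA).

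Bcl2 family proteins decide whether the outer mitochondrial membrane stays closed. Bax and Bak1 open it and release cytochrome c, the anti-apoptotic proteins hold them in check, and the BH3-only proteins carry stress signals to the family by binding its other members. In mammary epithelium, Bim (encoded by *Bcl2l11*) and Bmf are known for the death of cells that have lost contact with matrix, and TGF-β induces apoptosis in many epithelial cells. Much of this regulation acts on the proteins, which the arrays do not measure, and each probe set gives 1 value for a gene, so that splice forms such as the long and short products of *Bcl2l1* were not told apart.

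Upstream sequences of 4 members are shown. They belong to the 3 members whose groups did not overlap and to *Bcl2l11*, the member with a FOXO core motif before its outermost start. These members were thus picked by their array values or by that motif. The sequences are from RefSeq (GRCm38.p6). Each line holds the 250 bases before the outermost annotated start, 5′ to 3′ on the strand of the gene, and capitals mark matches on either strand to GTAAACA (FOXO core), GGGCGG (GC box) and CAGAC (Smad box).
Bcl2 (GRCm38.p6, chr1:106714291-106714540, - strand): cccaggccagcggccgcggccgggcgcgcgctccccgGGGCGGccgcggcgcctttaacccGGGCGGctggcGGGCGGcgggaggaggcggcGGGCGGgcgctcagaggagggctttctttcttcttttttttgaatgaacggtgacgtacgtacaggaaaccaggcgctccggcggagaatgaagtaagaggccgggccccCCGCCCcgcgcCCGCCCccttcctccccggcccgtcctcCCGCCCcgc
Bcl2l1 (GRCm38.p6, chr2:152831729-152831978, - strand): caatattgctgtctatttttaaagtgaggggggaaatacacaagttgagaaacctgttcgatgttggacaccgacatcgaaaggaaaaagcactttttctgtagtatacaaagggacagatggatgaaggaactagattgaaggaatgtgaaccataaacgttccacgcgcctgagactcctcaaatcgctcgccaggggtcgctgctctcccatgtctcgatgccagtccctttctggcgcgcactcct
Bid (GRCm38.p6, chr6:120916825-120917074, - strand): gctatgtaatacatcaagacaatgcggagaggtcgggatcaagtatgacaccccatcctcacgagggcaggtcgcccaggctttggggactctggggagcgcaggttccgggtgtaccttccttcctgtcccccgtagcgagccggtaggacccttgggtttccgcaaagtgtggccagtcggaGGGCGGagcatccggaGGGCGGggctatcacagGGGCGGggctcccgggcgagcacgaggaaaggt
Bcl2l11 (GRCm38.p6, chr2:128125788-128126037, + strand): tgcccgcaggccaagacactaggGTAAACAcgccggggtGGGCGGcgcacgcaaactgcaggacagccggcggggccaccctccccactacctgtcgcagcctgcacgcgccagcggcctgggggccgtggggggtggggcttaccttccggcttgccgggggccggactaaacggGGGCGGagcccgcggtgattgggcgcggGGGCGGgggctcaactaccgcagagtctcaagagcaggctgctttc
The window of *Bcl2* held 7 GC boxes at a GC content of 74.8%, those of *Bid* and *Bcl2l11* held 3 each at 63.6% and 72.0%, and that of *Bcl2l1* held none of the motifs at 47.6%. The FOXO core was present once before *Bcl2l11*, and among the 16 annotated start windows of the listed genes (*Bax* included, *Pmaip1* without a window) it was found in 2, of *Bcl2l11* and *Bbc3*. Over all 32851 start windows of this length in the table, 3.2% held the FOXO core, 32.7% the GC box and 42.2% the Smad box, and in these 16 windows they were found in 2, 9 and 6. The Smad box was found for *Bak1* and *Bbc3* before the outermost start, and for *Bcl2l1*, *Bcl2l11* and *Bmf* only before other starts. No window that held it is shown here. Such matches describe the letters of the windows and were not tested for binding.

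Control replicate 1 stood apart from the other arrays, with correlations (taken over probe sets, no independent replicates) of 0.984 and 0.987 with the other Control arrays, which correlated with each other at 0.995. Results of members that rest on Control replicate 1 are given with and without it. In long-term EMT cells none of the 9 measured members passed. To pass, a probe set needed both an adjusted p below 0.05 and more than a 1.5-fold difference, in a limma fit whose p-values were adjusted by Benjamini-Hochberg over all 35556 probe sets. Of all probe sets 1.92% passed (683 of 35556), 0.993% higher and 0.928% lower in long-term EMT cells. At an unadjusted p below 0.05 alone, 3 of the 9 members were called (*Bcl2*, *Bcl2l1* and *Bid*), and 13.5% of all probe sets. Of the 18820 genes read, like the members, from 1 probe set each, 3250 were called. When that p had to come with a 1.5-fold difference, 0 members were called, by limma (4.78% of all probe sets) or by the methods' t-test (3.73%). The count of members that passed was also 0 under each of the 21 alternative settings, but not all of these could have raised it. A fold above 2 is stricter, and reading the probe set with the lowest p changed no member. Settings that change only the p-values keep the fold changes, at which *Bmf* alone exceeded 1.5-fold. The median log2 fold change of the 9 members was -0.22, against 0.02 over all genes read from 1 probe set each and 0.02 over all probe sets, but it is the value of *Bcl2l11* and was -0.04 without Control replicate 1 and -0.11 without long-term EMT replicate 3. By value 8 of the 9 members were lower and 1 higher, but without Control replicate 1 these were 5 lower and 4 higher. All 9 lay above the background level of 4.48 in both groups, the value that 95% of 1006 probe sets for olfactory receptors, genes that mammary cells do not use, stayed below on average.

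**Figure D1:**
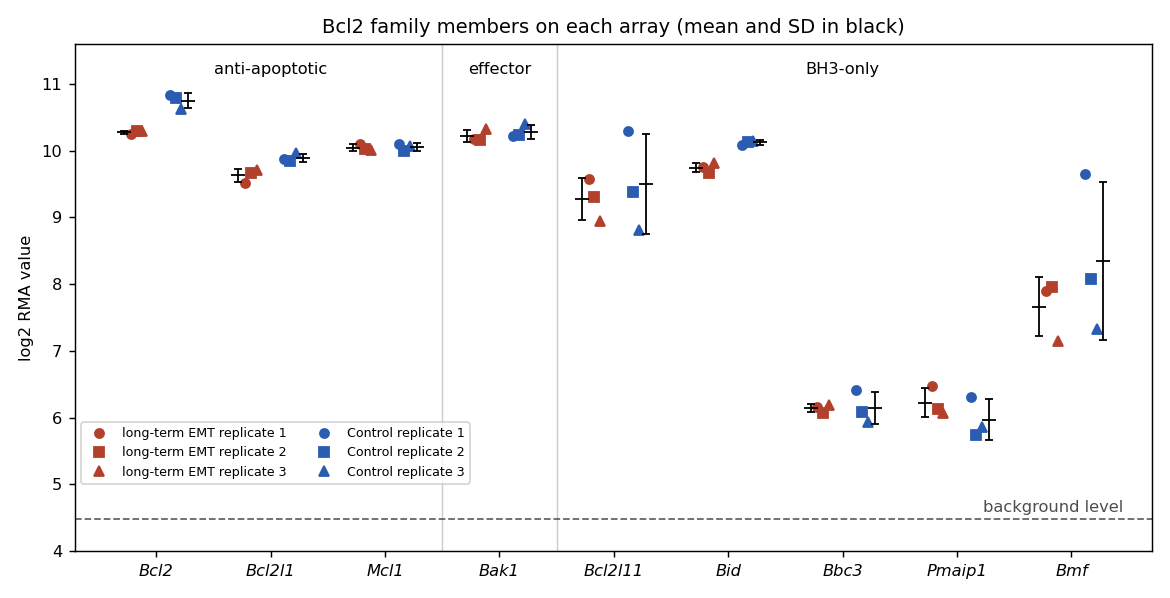
Log2 RMA values of the 9 measured Bcl2 family members on each array, in long-term EMT cells (red, left of each pair) and Control cells (blue, right of each pair), n = 3 each, with marker shape for the replicate number, mean and SD in black and the background level of 4.48 as a dashed line. For *Bcl2*, *Bcl2l1* and *Bid* the red points lie below the blue ones, and for *Bcl2l11* and *Bmf* Control replicate 1 stands above the other arrays.

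Of the anti-apoptotic genes, *Bcl2*, the founding member of the family, had log2 values of 10.25, 10.29 and 10.29 in long-term EMT cells, against 10.83, 10.79 and 10.62 in Control cells. All long-term EMT arrays were lower than any Control array. The means were 10.28 ± 0.02 in long-term EMT cells and 10.75 ± 0.11 in Control cells (SD, n = 3 each). The log2 fold change was thus -0.47 (SE, the standard error, 0.08, with a 95% interval -0.67 to -0.27, adjusted p = 0.0517 from limma), or a 1.39-fold lower level, below the 1.5-fold threshold. Its adjusted p ranged between 0.0089 and 0.197 over the alternative settings and was under 0.05 in some of them, but the fold stayed below the threshold, with the log2 fold change between -0.53 and -0.28. The second probe set of *Bcl2* lay below the background level, with means of 4.37 in long-term EMT cells and 4.47 in Control cells, and gives no usable comparison.

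*Bcl2l1*, which encodes Bcl-xL, had log2 values of 9.52, 9.66 and 9.71 in long-term EMT cells, against 9.87, 9.85 and 9.96 in Control cells. Again the groups did not overlap, with long-term EMT cells lower. The log2 fold change was -0.26 (SE 0.08, 95% interval -0.47 to -0.06, adjusted p = 0.237 from limma), a 1.20-fold lower level. *Mcl1*, whose short-lived protein many cells need for survival, had values of 10.10, 10.03 and 10.01 in long-term EMT cells and 10.10, 9.99 and 10.07 in Control cells. The values of the groups interleaved, and the log2 fold change was -0.01 (SE 0.07, 95% interval -0.19 to 0.17, adjusted p = 0.986). The 3 anti-apoptotic genes had a median log2 fold change of -0.26.

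*Bak1*, the measured effector, had log2 values of 10.18, 10.16 and 10.32 in long-term EMT cells, against 10.22, 10.23 and 10.40 in Control cells, and the groups overlapped. Its log2 fold change was -0.06 (SE 0.09, 95% interval -0.28 to 0.15, adjusted p = 0.848 from limma). The second probe set of *Bak1* had means of 5.53 and 5.53 and a log2 fold change of 0.00.

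Among the BH3-only genes, *Bid*, which links death receptors to mitochondria once caspase 8 has cut its protein, had log2 values of 9.76, 9.67 and 9.81 in long-term EMT cells, against 10.09, 10.13 and 10.15 in Control cells. Every long-term EMT array lay below every Control array. *Bid* had a log2 fold change of -0.38 (SE 0.08, 95% interval -0.56 to -0.20, adjusted p = 0.0709 from limma), a 1.30-fold lower level, and its adjusted p lay between 0.0141 and 0.254 over the alternative settings. Arrays that did not overlap, with long-term EMT cells lower, were thus seen for 3 of the 9 members, and for 8.68% of all probe sets. The opposite order was seen for 0 members and for 10.5% of all probe sets. Of the 18820 genes read, like the members, from 1 probe set each, 2161 had all long-term EMT arrays lower and 2370 all higher. The 3 members lie on both sides of the family, since *Bcl2* and *Bcl2l1* oppose apoptosis and *Bid* promotes it.

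*Bmf*, whose protein is held at the actin cytoskeleton in healthy cells, was the member that varied most between replicates. It had log2 values of 7.89, 7.95 and 7.15 in long-term EMT cells, against 9.65, 8.07 and 7.33 in Control cells. Control replicate 1 stood well above the other 5 arrays, which overlapped between the groups. The log2 fold change of -0.69 is the largest by size among the members, but its 95% interval ran between -2.10 and 0.72 (SE 0.58, adjusted p = 0.717 from limma), and with 1 array left out it lay between -1.20 and -0.04, at -0.04 without Control replicate 1, -1.20 without Control replicate 3 and -0.43 without long-term EMT replicate 3. *Bcl2l11*, which encodes Bim, had values of 9.57, 9.30 and 8.95 in long-term EMT cells and 10.30, 9.38 and 8.81 in Control cells. Here too Control replicate 1 was the highest array and the groups overlapped. The log2 fold change was -0.22 (SE 0.38, 95% interval -1.14 to 0.69, adjusted p = 0.875), and without Control replicate 1 it changed sign to 0.18.

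*Bbc3* and *Pmaip1* encode Puma and Noxa, which are known as targets of the p53 protein. *Bbc3* had log2 values of 6.16, 6.07 and 6.19 in long-term EMT cells, against 6.41, 6.08 and 5.94 in Control cells, and its group means differed by less than the spread between replicates. For *Bbc3* the log2 fold change was -0.0033 (SE 0.13, 95% interval -0.32 to 0.32, adjusted p = 0.995 from limma), and it was 0.13 without Control replicate 1. *Pmaip1* had values of 6.47, 6.13 and 6.07 in long-term EMT cells and 6.31, 5.74 and 5.86 in Control cells, which overlapped. Its mean was the higher in long-term EMT cells, the exception among the members, by 0.25 on the log2 scale (SE 0.18, 95% interval -0.19 to 0.69, adjusted p = 0.653), and with 1 array left out it lay between 0.13 (without long-term EMT replicate 1) and 0.42 (without Control replicate 1), with 0.14 without Control replicate 2. Control replicate 1 was the highest Control array for 4 of the 5 BH3-only genes, all but *Bid*.

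The precision differed between the members. For 5 of the 9 (*Bcl2l1*, *Mcl1*, *Bak1*, *Bid* and *Bbc3*), the whole 95% interval lay within a 1.5-fold change in either direction. For the other 4 it reached past 1.5-fold, for *Bcl2* on the lower side, for *Pmaip1* on the higher side and for *Bcl2l11* and *Bmf* on both sides. The standard errors ran between 0.07 for *Mcl1* and 0.58 for *Bmf*. These intervals are not adjusted for the number of probe sets, and those of *Bcl2*, *Bcl2l1* and *Bid* left out 0.

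**Figure D2:**
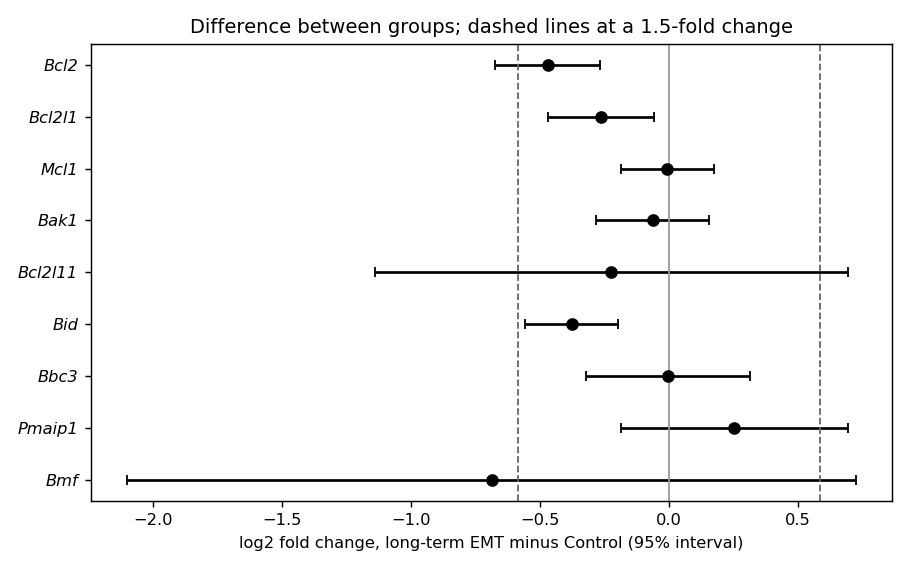
Log2 fold change of each member, long-term EMT minus Control, with its 95% interval from limma (n = 3 per group); the dashed lines mark a 1.5-fold change and the grey line no difference. The intervals of *Bcl2*, *Bcl2l1* and *Bid* lie below 0, and that of *Bmf*, between -2.10 and 0.72, is the widest.

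The rest of the pathway was read from 7 lists with 66 genes, of which 54 had a probe set naming that gene alone. Of these 54, 1 fell, 0 rose and 53 did not pass, with a median log2 fold change of -0.01. This count is near the share of 1.92% that passed among all probe sets and is no result about the pathway. The other 12 genes were not analysed here. The gene that fell was *Tnfrsf1a*, the TNF receptor whose death domain can start the extrinsic pathway. It had log2 values of 9.44, 9.38 and 9.45 in long-term EMT cells, against 10.12, 9.97 and 10.09 in Control cells, which did not overlap. The log2 fold change of *Tnfrsf1a* was -0.64 (SE 0.08, adjusted p = 0.0149 from limma), or 1.55-fold lower, close to the 1.5-fold threshold. When each of the 6 arrays was left out in turn, *Tnfrsf1a* passed in 1 fit, the one without Control replicate 1 (-0.61), while in the other 5, each without another array, its adjusted p was between 0.0528 and 0.0878.

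Of the 12 measured genes of the death receptor pathway, 11 did not pass. *Fas*, another death receptor, had log2 values of 5.72, 5.14 and 5.80 in long-term EMT cells, against 7.68, 6.57 and 6.34 in Control cells. The groups did not overlap, but the Control arrays were spread widely, and the log2 fold change of -1.31 had an SE of 0.37 (adjusted p = 0.182 from limma). Without Control replicate 1 the log2 fold change of *Fas* was -0.90. *Cflar*, which encodes the caspase 8 inhibitor c-FLIP, was higher by value on each of its 3 probe sets, with log2 fold changes of 0.42, 0.50 and 0.53 and adjusted p = 0.0537, 0.0313 and 0.0742, and none reached 1.5-fold. *Casp8* itself, at 11.61 in long-term EMT cells and 11.50 in Control cells, had a log2 fold change of 0.11 (adjusted p = 0.728).

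Downstream of the mitochondria, *Apaf1*, the scaffold of the apoptosome, had log2 values of 9.26, 9.15 and 9.24 in long-term EMT cells, against 8.70, 8.70 and 8.74 in Control cells. The groups were well apart, with a log2 fold change of 0.50 (SE 0.07, 95% interval 0.33 to 0.68, adjusted p = 0.026 from limma), or 1.42-fold higher, so that *Apaf1* met the p threshold and not the fold threshold. With no fold threshold, 2.21% of all probe sets and 0 of the 9 members were called. *Casp9*, the caspase that *Apaf1* activates, had a log2 fold change of 0.22 (adjusted p = 0.382), and *Xiap*, an inhibitor of caspases, had one of 0.22 (adjusted p = 0.41). The 8 measured genes of the apoptosome and caspases had a median of 0.12 and the 6 inhibitor of apoptosis genes one of -0.03, and none of either list passed.

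Of the other Bcl2 family genes, 2 anti-apoptotic and 8 pro-apoptotic ones were measured and none passed. *Bok*, a relative of the effectors, had log2 values of 8.31, 7.83 and 8.23 in long-term EMT cells, against 7.32, 7.17 and 7.88 in Control cells, with a small overlap and a log2 fold change of 0.67 (SE 0.22, adjusted p = 0.248 from limma). *Bnip3*, a mitochondrial protein of mitophagy related to the BH3-only group, had values of 11.17, 10.33 and 9.47 in long-term EMT cells and 11.48, 10.69 and 10.33 in Control cells, so that its spread within each group exceeded the difference of -0.51 between them (adjusted p = 0.749). In both groups *Bnip3* fell from replicate 1 to replicate 3, and each long-term EMT array lay below the Control array of the same number. Of the members, *Bcl2l11* also fell from replicate 1 to replicate 3 in both groups. Long-term EMT was lower in all 3 same-numbered pairs for *Bcl2*, *Bcl2l1*, *Bak1*, *Bid* and *Bmf*. It was higher in all 3 for *Pmaip1*, and the pairs were mixed for *Mcl1*, *Bcl2l11* and *Bbc3*. None of the 8 measured regulators of BH3-only genes passed, with a median of 0.02, and none of the 10 genes for mitochondrial receptors, binding partners and turnover of the members did, with a median of -0.06.

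**Figure D3:**
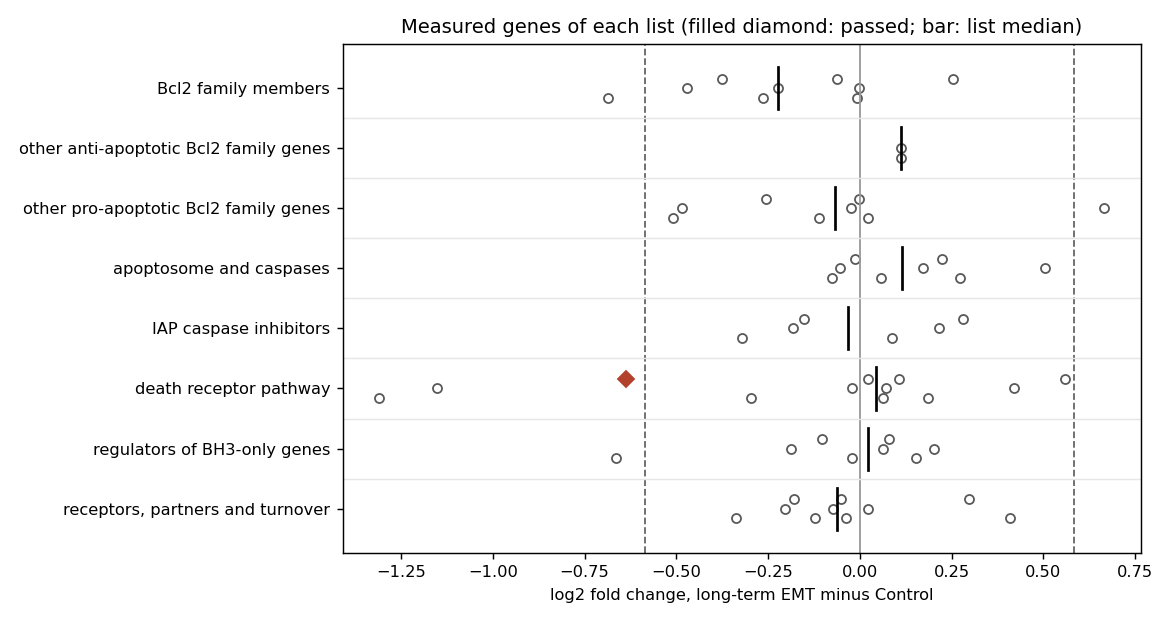
Log2 fold change (long-term EMT minus Control) of every measured Bcl2 family member and of each measured gene of the 7 pathway lists, with a bar at the median of each row and dashed lines at a 1.5-fold change. The filled diamond is *Tnfrsf1a* (-0.64), the gene that passed, and the open circles are genes that did not.

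The labels were checked on *Cdh1* (E-cadherin), whose log2 values were 4.78, 4.31 and 4.34 in long-term EMT cells, against 10.27, 9.31 and 9.12 in Control cells (log2 fold change -5.09, adjusted p = 0.00195 from limma). Of 6 epithelial markers, 3 passed, all lower in long-term EMT cells. Besides *Cdh1* these were *Epcam* (-3.85, adjusted p = 0.00922 from limma) and *Cldn7* (-3.81, adjusted p = 0.00367). The keratin genes *Krt8* and *Krt18*, which mark simple epithelium, did not pass and were above 12 on every array of both groups. *Krt19* did not pass either (0.64, adjusted p = 0.709) and stood out only on long-term EMT replicate 1, at 7.07. The 5 measured leukocyte markers lay between 3.85 and 5.04 in long-term EMT cells and between 3.79 and 4.93 in Control cells, and none passed, while of 4 endothelial markers *Cdh5* rose and the others did not pass. None of the 5 fibroblast markers passed, although *Pdgfra*, *Pdgfrb* and *Dcn* were lower on every long-term EMT array than on any Control array (log2 fold changes -0.95, -1.31 and -1.76, adjusted p = 0.248, 0.126 and 0.376 from limma), *Col1a1* was higher on every one (0.62, adjusted p = 0.137) and *Lum* differed by 0.05. For *Pdgfra* and *Dcn* Control replicate 1 was the highest array, at 8.96 and 7.68, and no value without it is given. On every long-term EMT array *Dcn* lay below the background level of 4.48. The part of these markers in the values of the members was not tested. The samples are described as triplicates. The study's general statement on statistics speaks of independent experiments in triplicate and does not say whether that holds for the arrays. The p-values therefore cover only how far these samples differ, which may be technical, and the number of arrays limits the precision.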

How the data were processed

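Expression was measured on 6 Affymetrix MoGene-1_1-st-v1 arrays, 3 of long-term EMT and 3 of Control EpRas cells, with 150 ng of RNA each. The authors processed the arrays with RMA, and per the labels the tool was Affymetrix Expression Console, whose version is not given in the sources used here. The deposited values are log2 values with 2 decimals for 35556 probe sets and were used as deposited. RMA brings the arrays to a common distribution, so a shift shared by all genes cannot be seen. Probe sets were named by GEO's platform annotation, in which 21218 have 1 gene symbol, 1881 several and 12457 none, and probe sets with several named no gene. Each gene was read from its probe set with the highest mean over the 6 arrays.

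The groups were fitted with limma's lmFit and eBayes (limma 3.58.1 under R 4.3.3, two-sided). P-values were adjusted by Benjamini-Hochberg over every probe set, with no replicate block, since the methods name none. The members and lists were chosen with earlier results of these data known. Genes named are all members, list genes that passed (up to 4 per list) and the defining genes of each step. Other list genes (*Cflar*, *Bok*, *Bnip3*) were named after their values were seen. The alternatives were a replicate block, each array left out, other variance priors, array weights, the methods' t-test, other fold thresholds, normalization again, a filter on dim probe sets and other ways to read or adjust genes.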

Additional observations from a re-analysis of the deposited data

How the results depend on the processing

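The count of members that passed was 0 under all 21 alternatives, and so was that of the anti-apoptotic and of the pro-apoptotic members. A fold above 2 or the probe set with the lowest p could not have raised it. Settings that change only the p-values could have raised it only through *Bmf*. *Bcl2* had an adjusted p under 0.05 without reaching 1.5-fold with a trended and robust prior, array weights, arrays set to equal medians, a filter on dim probe sets (at each of 3 background percentiles) or adjustment over probe sets with 1 gene symbol, and *Bid* with array weights, the mean of all probe sets of a gene or 1 gene symbol. For these genes the cause was not tested. Leaving out 1 array at a time gave log2 fold changes between -0.0383 and 0.0167 for *Mcl1*, -0.57 and 0.18 for *Bcl2l11*, -0.105 and 0.13 for *Bbc3*, -1.20 and -0.04 for *Bmf*, and 0.13 and 0.42 for *Pmaip1*. With array weights *Mcl1* was at 0.0296 and *Bbc3* at 0.0463, and with quantile normalization again *Bbc3* was at 0.0053.

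The count of pathway genes that passed, 1 in the comparison as reported, lay between 0 and 1 when 1 array was left out. It was 0 with the replicate block, with the methods' t-test after Benjamini-Hochberg and with a fold above 2, 2 with the methods' t-test at an unadjusted p (*Tnfrsf1a* and *Fas*) and with no fold threshold (*Tnfrsf1a* and *Apaf1*), and 3 with array weights (*Bcl2l15*, *Fas* and *Tnfrsf21*). The count over all probe sets, 683, lay between 205 and 954 when 1 array was left out, and was 1497 with array weights, 1326 with the methods' t-test at an unadjusted p, 69 with that test after Benjamini-Hochberg and 420 with a fold above 2. With the replicate number as a block it was 534, and the adjusted p of *Tnfrsf1a* was 0.052 and that of *Bcl2* 0.12. Same-numbered arrays deviated from their group means with correlations of 0.188, 0.02 and 0.249. Between differently numbered arrays these correlations ran from -0.267 to 0.142. The labels do not say whether same-numbered arrays shared a culture or batch, and this was not tested.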
